A study of Rattus norvegicus with 8 samples.

Results

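The 10 genes described here encode the core ligands and receptors of vascular endothelial growth factor (VEGF) and angiopoietin signalling, namely the ligands Vegfa, Vegfb and Vegfc, the VEGF receptors Flt1, Kdr and Flt4, the ligands Angpt1 and Angpt2, their receptor Tek and its partner receptor Tie1. They were taken by symbol from the deposited count table, and all 10 were found among its 22601 gene names and were tested. The samples are rat sciatic nerves taken on day 15 after chronic constriction injury (CCI, in which loose ligatures around the nerve model neuropathic pain) or after a sham operation, with 4 libraries of polyA RNA in each group. The sources used here give no strain, sex, age or genotype and do not say whether libraries stem from separate animals. The p-values therefore measure only the spread between these libraries, which may be technical. The series title concerns the FGF4/HIF-1α axis and glycolysis, and the comparison here asks how blood vessel signalling genes, among them the hypoxia target Vegfa, differed between injured and sham nerve.

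VEGF ligands bind receptor tyrosine kinases that are made mainly by endothelial cells. Kdr carries most of the growth signal, Flt1 binds Vegfa and Vegfb tightly and can act as a trap, and Flt4 is the receptor of Vegfc on lymphatic and sprouting vessels. Angpt1 activates Tek and stabilises vessels, Angpt2 is a context-dependent ligand that can oppose it, and Tie1 modulates Tek without a well-established ligand of its own. Peripheral nerve holds vessels within the nerve bundles, whose endothelium is part of the blood-nerve barrier, and more permeable vessels in the sheath.

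Totals lay between 42541217 and 54559292 counts per library, and the 10 genes had between 120 and 14145 counts in each library, so the counting error of a single value was at most 9.13%. Markers of the labelled tissue were present, and the 8 genes of the myelinating Schwann cell summed to 92676 to 109168 CPM (counts relative to the library's scaled total) in sham and 6900 to 10575 CPM in CCI nerve. Sham 1 stood apart for the genes described here, being the lowest sham library for 8 of the 10, all but Vegfb and Kdr. CCI 2 held the most skeletal muscle RNA, with a summed level of 5636 CPM over 8 markers against 15.8 to 1104 CPM in the other CCI libraries. Sham 2 held the most among sham libraries, with 984 CPM against 18.6 to 33.8 CPM in the others. In whole nerve, more cells of a type and more RNA per cell cannot be told apart.

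Promoter windows of 4 of the genes are shown because they belong to the most changed receptor (Tie1), to 2 VEGF receptors without overlap between the groups (Kdr and Flt1), and to the hypoxia target among the ligands (Vegfa). Each runs from 250 bases before to 50 bases after the gene's start in RefSeq (assembly GRCr8, which is not the build named for the deposited counts). Capitals mark every match, on either strand, to the motifs searched. The cores of the hypoxia response element were spelled ACGTG and, in the variant form, GCGTG. The cores bound by ETS transcription factors were spelled AGGAAG and, with other flanking bases, CCGGAA. The other motifs were the GC box GGGCGG bound by Sp1, the cAMP response element TGACGTCA, the TATA box TATAAA and the AP-1 motif TGANTCA. No matches overlapped in the 4 windows shown.
Tie1 (chr5:137304932-137305231, minus strand): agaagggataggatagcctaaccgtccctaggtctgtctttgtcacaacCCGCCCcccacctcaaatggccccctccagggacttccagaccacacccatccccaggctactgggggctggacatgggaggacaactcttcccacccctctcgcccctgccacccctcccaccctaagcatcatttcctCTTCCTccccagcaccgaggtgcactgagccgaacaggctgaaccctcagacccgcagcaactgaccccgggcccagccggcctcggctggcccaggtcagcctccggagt
Kdr (chr14:32571813-32572112, plus strand): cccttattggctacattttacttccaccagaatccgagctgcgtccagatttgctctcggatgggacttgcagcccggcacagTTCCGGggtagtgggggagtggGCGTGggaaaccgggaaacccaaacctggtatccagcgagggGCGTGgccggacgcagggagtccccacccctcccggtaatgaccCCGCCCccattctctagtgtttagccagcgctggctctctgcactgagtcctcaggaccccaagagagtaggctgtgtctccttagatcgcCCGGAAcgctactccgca
Flt1 (chr12:12333180-12333479, plus strand): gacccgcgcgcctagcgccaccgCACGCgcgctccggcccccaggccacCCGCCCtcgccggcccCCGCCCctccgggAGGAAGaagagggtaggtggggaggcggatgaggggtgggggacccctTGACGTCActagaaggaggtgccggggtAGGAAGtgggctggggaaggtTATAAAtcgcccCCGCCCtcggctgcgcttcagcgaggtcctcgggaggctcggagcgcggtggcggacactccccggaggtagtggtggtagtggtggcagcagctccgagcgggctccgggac
Vegfa (chr9:22452604-22452903, plus strand): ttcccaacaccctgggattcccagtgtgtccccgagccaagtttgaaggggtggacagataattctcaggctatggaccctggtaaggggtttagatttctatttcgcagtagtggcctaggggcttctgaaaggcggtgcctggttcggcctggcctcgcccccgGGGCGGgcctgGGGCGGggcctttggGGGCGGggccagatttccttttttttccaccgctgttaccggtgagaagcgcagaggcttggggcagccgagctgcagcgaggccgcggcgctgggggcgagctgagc
A promoter was found for 7 of the 10 genes, and Tek, Angpt1 and Angpt2 had no entry. A GC box was present in all 7, against 33.1% of 33469 rat promoter windows, but their GC content of 61.0% to 75.0% was above the median of 51.7% over all windows, and the share among windows of like GC content was not computed. Of the 7 windows, 3 held the ETS core AGGAAG (Flt1, Flt4 and Tie1) and 1 held CCGGAA (Kdr), against 34.5% and 15.0% of all windows. Each of the 4 receptors with an entry thus had 1 of the 2 cores. The share of all windows with either core was not computed. GCGTG occurred in Kdr, Flt1 and Vegfb (29.7% of all windows) and ACGTG in none of the 7 (19.3%). The Vegfa window held 3 GC boxes and no other match. For Vegfa 2 windows were listed, and only the one nearest to the gene's start was used. Sequence farther upstream was not searched. A match is a description of these letters only.

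All 10 genes were higher in CCI than in sham nerve at an adjusted p under 0.05 in edgeR's quasi-likelihood test, and none was lower. Of all 15763 genes tested, 68.4% were called, 36.2% higher and 32.2% lower. The median log2 fold change of the 10 genes was 0.67, against 0.05 over all tested genes. In 7 of the 10 the libraries of the 2 groups did not overlap, a pattern that 34.2% of all tested genes showed with CCI higher and 64.8% in either direction. The size of the rise ranged from 4.40-fold for Tie1 to 1.18-fold for Tek. Calls for Vegfa, Flt4 and Tek were fragile, with adjusted p between 0.0334 and 0.0474, and each of these was lost in 11 of 20 alternative settings.

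**Figure D1:**
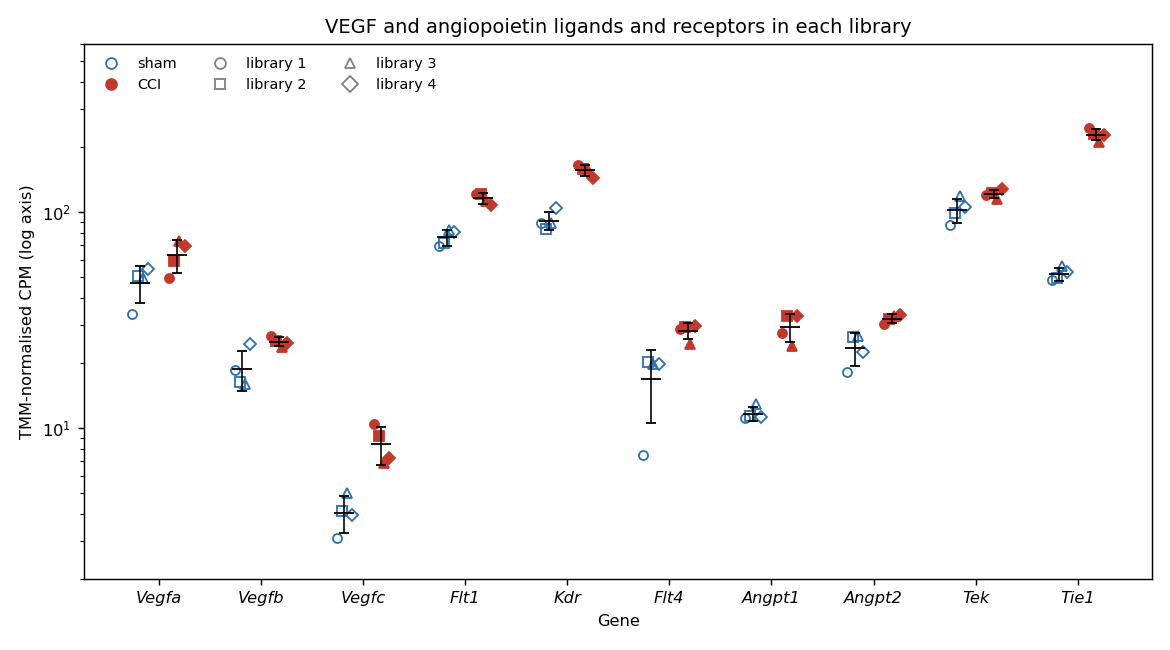
Levels of the 10 genes in each library, as TMM-normalised CPM on a log axis, with open blue symbols for sham, filled red symbols for CCI, a symbol shape for each library number, and bars for mean ± SD (n = 4). Tie1 lay between 48.5 and 56.2 CPM in sham and between 211 and 244 CPM in CCI, while the groups overlapped for Vegfa, Vegfb and Tek.

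Tie1 showed the largest difference of the 10 genes. Its normalised level was 48.5, 49.2, 56.2 and 52.9 CPM in sham 1 to 4 and 244, 229, 211 and 227 CPM in CCI 1 to 4. All CCI libraries were far above all sham libraries, and the spread within groups was small (51.7 ± 3.58 and 228 ± 13.6 CPM, SD, n = 4). Its log2 fold change was 2.14 (SE 0.07; edgeR adjusted p = 5.59e-09), and 7.49% of all tested genes had a larger one. The call held in all 20 alternative settings, with log2 fold changes of 2.07 to 2.36.

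Tek, the angiopoietin receptor with which Tie1 forms complexes, changed far less. It stood at 86.7, 98.9, 119 and 105 CPM in sham 1 to 4 and at 120, 122, 115 and 128 CPM in CCI 1 to 4. Sham 3 lay above CCI 3, so the groups overlapped. The log2 fold change was 0.24 (SE 0.09; edgeR adjusted p = 0.0334), and the call was lost without any 1 of CCI 1, 2, 3 or 4 or sham 1 or 2 (adjusted p 0.0533 to 0.113). In FPKM, which is per length, Tek was the highest of the 10 genes in sham nerve (19.9 ± 2.60) and Tie1 ranked 3 (12.3 ± 0.843), whereas in CCI Tie1 ranked 1 (63.3 ± 2.83) and Tek 3 (27.5 ± 1.19). Between neighbours in this order, Tek and Kdr (14.4 ± 1.48) did not overlap in sham, while Kdr overlapped with Tie1, Tie1 with Vegfa and Vegfa with Angpt2. Compared within a library, Kdr was above Tie1 in 4 sham libraries and Vegfa above Angpt2 in 4, but Tie1 above Vegfa in only 2. In CCI Tie1 did not overlap with Kdr (28.7 ± 1.59), which overlapped with Tek and was above it in 3 libraries. Angpt1 was the lowest of the 10 per length in both groups (1.01 ± 0.0695 and 2.98 ± 0.438).

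Kdr, the main signalling receptor for Vegfa, rose in every CCI library. It had 89.3, 83.0, 88.9 and 104 CPM in sham 1 to 4 and 165, 159, 157 and 143 CPM in CCI 1 to 4, with no overlap. Kdr had a log2 fold change of 0.77 (SE 0.08; edgeR adjusted p = 8.42e-06). Flt1 had 69.4, 71.6, 82.6 and 81.1 CPM in sham 1 to 4 and 121, 121, 113 and 108 CPM in CCI 1 to 4. These groups did not overlap either, and the log2 fold change of Flt1 was 0.60 (SE 0.07; edgeR adjusted p = 3.24e-05). Both calls held in 19 of 20 alternatives and were lost only when a rise of more than 2-fold was asked for.

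Flt4 differed from the other receptors in the spread of its sham libraries. It was at 7.48 CPM in sham 1 and at 20.2, 19.7 and 19.8 CPM in sham 2 to 4, against 28.6, 29.4, 24.5 and 29.8 CPM in CCI 1 to 4. The groups did not overlap, and the log2 fold change was 0.74 (SE 0.28; edgeR adjusted p = 0.0434). Without sham 1 the log2 fold change was 0.50 and the adjusted p 0.000731. The call was lost without any 1 of the other 7 libraries (adjusted p 0.0508 to 0.0995).

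Markers of lymphatic endothelium moved with Flt4 in sham 1. Prox1, the transcription factor that sets lymphatic identity, was at 2.21 CPM in sham 1 and at 9.56 to 10.6 CPM in the other sham libraries. Ccl21, a chemokine of lymphatic vessels, was at 2.59 against 16.6 to 17.1 CPM, and Mmrn1, a lymphatic matrix protein, at 6.04 against 39.1 to 50.7 CPM. The whole list of 5 markers summed to 70.8 CPM in sham 1, 146 to 193 CPM in sham 2 to 4 and 139 to 235 CPM in CCI, and none was at 0. Of the 5, Pdpn, a glycoprotein also made by other cells, rose (log2 fold change 1.56, SE 0.10) and 4 did not pass. Among all tested genes, 36.2% rose and 32.2% fell. CCI 1 was likewise the lowest CCI library for Prox1 (the others were at 6.09 to 11.7 CPM), Ccl21 (3.99 against 26.8 to 55.3 CPM) and Mmrn1 (4.14 against 10.7 to 24.0 CPM). It was not the lowest for Lyve1 (63.0 against 58.2 to 72.6 CPM) or Pdpn (66.0 against 64.8 to 72.5 CPM). The Flt4 level of CCI 1, 28.6 CPM, was also within the range of the other CCI libraries. The part of lymphatic vessels in the Flt4 result was not tested.

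**Figure D2:**
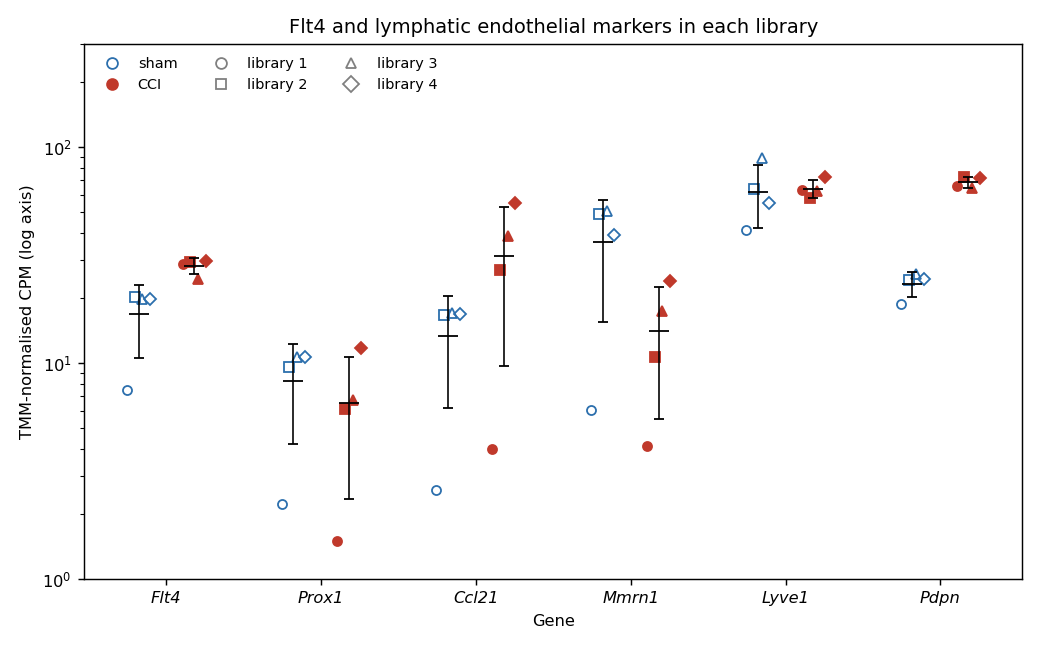
Flt4 and 5 lymphatic endothelial markers in each library, as TMM-normalised CPM on a log axis, drawn as in the plot of the 10 genes with mean ± SD (n = 4). Sham 1 was lowest for all 6 genes among the sham libraries, while CCI 1 was lowest for Prox1, Ccl21 and Mmrn1 and not for Lyve1, Pdpn or Flt4.

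Among the 5 ligands of the 10 genes, Angpt1, the activating ligand of Tek that perivascular and other stromal cells make, rose most. It was at 11.1, 11.3, 12.9 and 11.2 CPM in sham 1 to 4 and at 27.4, 32.9, 24.0 and 33.0 CPM in CCI 1 to 4. The lowest CCI library was well above the highest sham library. Angpt1 had a log2 fold change of 1.33 (SE 0.11; edgeR adjusted p = 2.00e-06), and the call held in all 20 alternatives, also when a rise of more than 2-fold was asked for.

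Angpt2, which endothelial cells store and release, rose less. Its values were 18.1, 26.4, 26.7 and 22.5 CPM in sham 1 to 4 and 30.2, 31.8, 33.1 and 33.3 CPM in CCI 1 to 4. The groups did not overlap, although sham 2 and 3 came close to the CCI libraries (log2 fold change 0.45, SE 0.12; edgeR adjusted p = 0.00496). Per length, Angpt2 remained the more abundant ligand in every library: the ratio of its FPKM to that of Angpt1 was 9.34 in sham and 5.17 in CCI (geometric means). This gap depends on the lengths used, 2267 bp for Angpt2 and 10611 bp for Angpt1. In CPM, not divided by length, the means of Angpt2 and Angpt1 were 23.4 and 11.6 in sham and 32.1 and 29.3 in CCI. In CCI 2 Angpt1 was the higher in CPM (32.9 against 31.8).

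Vegfc, the ligand of Flt4, had the lowest counts of the 10 genes and rose 2.08-fold. It had 3.08, 4.14, 5.00 and 3.95 CPM in sham 1 to 4 and 10.4, 9.15, 6.85 and 7.28 CPM in CCI 1 to 4, with no overlap. The log2 fold change was 1.06 (SE 0.19; edgeR adjusted p = 0.000485), and CCI 3 and 4 were the lowest CCI libraries.

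Vegfa, the central ligand of vessel growth and a target of hypoxia-inducible factors, was only slightly higher. It was at 33.6, 50.4, 49.7 and 54.6 CPM in sham 1 to 4 and at 49.5, 59.6, 73.7 and 69.3 CPM in CCI 1 to 4. CCI 1 lay within the range of the sham libraries. The log2 fold change was 0.42 (SE 0.17; edgeR adjusted p = 0.0474), and the call was lost without any 1 of CCI 2, 3 or 4 or sham 1, 2 or 3 (adjusted p 0.0665 to 0.150). With the low library sham 1 left out, the log2 fold change was 0.29.

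Vegfb, a ligand of Flt1 known for roles in heart and fat, had 18.6, 16.3, 15.9 and 24.5 CPM in sham 1 to 4 and 26.6, 25.2, 23.8 and 24.8 CPM in CCI 1 to 4. Sham 4 was above CCI 3, and the other sham libraries were below all CCI libraries. Vegfb had a log2 fold change of 0.41 (SE 0.13; edgeR adjusted p = 0.0148). The call was lost without CCI 1 (adjusted p = 0.0521) and without CCI 2 and sham 2 together (0.0731).

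**Figure D3:**
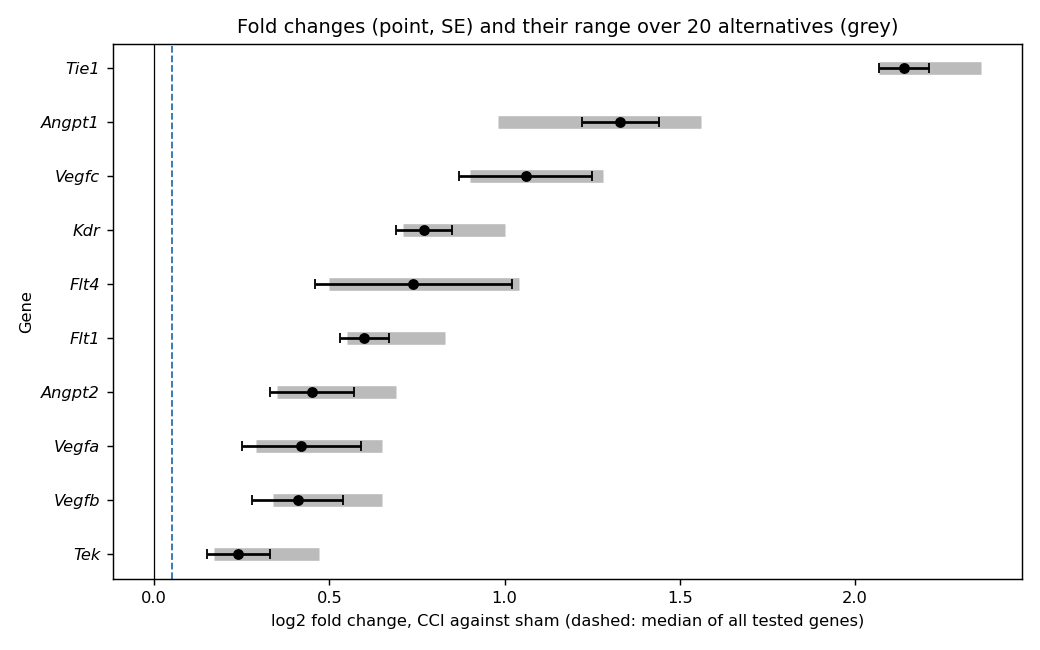
Log2 fold change of CCI against sham for each gene (point, with its SE), its lowest to highest value over 20 alternative settings (grey bar), and the median of all tested genes (dashed line at 0.05). All values lie above 0, from 0.24 for Tek to 2.14 for Tie1, and the grey bar of Tie1 does not reach that of any other gene.

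Ratios within a library do not depend on how libraries are scaled to each other, so 10 ratios of FPKM were compared between groups with an exact two-sided permutation test over 70 splits, whose smallest possible p is 0.0286. The ratio of Tie1 to Tek was below 1 in every sham library and above 1 in every CCI library. On the log2 scale it was -0.54, -0.72, -0.79 and -0.70 in sham 1 to 4 and 1.32, 1.21, 1.17 and 1.12 in CCI 1 to 4, a 3.71-fold difference (p = 0.0286 by the exact permutation test, adjusted p over the 10 ratios = 0.0476). The log2 ratio of Angpt2 to Angpt1 was 2.93, 3.46, 3.28 and 3.23 in sham 1 to 4 and 2.37, 2.18, 2.69 and 2.24 in CCI 1 to 4. This balance was thus 1.81-fold lower in CCI, with no overlap (exact permutation p = 0.0286, adjusted 0.0476).

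The log2 ratio of Flt1 to Kdr was -1.24 ± 0.13 in sham and -1.41 ± 0.04 in CCI nerve (SD, n = 4), a difference of -0.17 with groups that did not overlap (exact permutation p = 0.0286, adjusted 0.0476). The ratio of Vegfc to Vegfa was 1.55-fold higher in CCI, with overlap (exact permutation p = 0.0571, adjusted 0.0714). That of Vegfa to Vegfb was 0.68 ± 0.39 in sham and 0.68 ± 0.32 in CCI on the log2 scale, and no difference was detectable (exact permutation p = 0.971). The calls for Tie1 to Tek and Angpt2 to Angpt1 were lost without CCI 1, without CCI 2 or without CCI 4 (adjusted p = 0.0571 by the exact permutation test), and that for Flt1 to Kdr without any 1 CCI library (0.122 to 0.143). The difference in Vegfc to Vegfa was 0.80 on the log2 scale and passed without CCI 3 (adjusted p = 0.0476, exact permutation test), and it was 0.41 without CCI 1 (adjusted p = 0.163). Except for Vegfa to Vegfb, all these differences kept their sign when any 1 library was left out.

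Endothelial markers moved with the receptors and are given beside them. Of 17 tested endothelial genes, 13 rose, 2 fell and 2 did not pass (all tested genes: 36.2% rose and 32.2% fell). Their median log2 fold change was 0.63. The largest were those of Sox18 (2.32, SE 0.14) and Plvap (2.09, SE 0.17), close to the 2.14 of Tie1. The whole list of 18 summed to 1002 to 1127 CPM in sham and 1773 to 2023 CPM in CCI nerve. The adhesion molecules Pecam1 and Cdh5 rose by 0.63 (SE 0.13) and 0.51 (SE 0.11) on the log2 scale, Esam by 1.08 (SE 0.09), the secreted factor Egfl7 by 0.81 (SE 0.08) and the TGF-β co-receptor Eng by 2.07 (SE 0.12). The 2 that fell were Cldn5, a tight junction protein of barrier endothelium (log2 fold change -0.73, SE 0.09), and Ecscr (-1.04, SE 0.08).

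Set against the mean of Pecam1, Cdh5, Esam, Egfl7 and Eng in the same library, the receptors parted. Tie1 was 2.17-fold higher relative to these markers in CCI than in sham nerve, with log2 values of -0.08 ± 0.04 and -1.19 ± 0.10. Tek was 1.71-fold lower (-1.28 ± 0.10 against -0.51 ± 0.09) and Flt1 1.34-fold lower (-2.63 ± 0.05 against -2.21 ± 0.10). None of these 3 overlapped between groups (exact permutation p = 0.0286 and adjusted p = 0.0476 for each). All 3 calls were lost without CCI 1, without CCI 2 or without CCI 4 (adjusted p = 0.0571 each by the exact permutation test), while the differences kept their sign. Here too the test stayed at its smallest possible p, and only the adjustment over the 10 ratios moved. For Kdr the difference was -0.25 (exact permutation p = 0.0571, adjusted 0.0714) and for Flt4 -0.18 (exact permutation p = 0.657). Without sham 1, the outlying library for this ratio, the difference for Flt4 was -0.46 and passed (exact permutation test, adjusted p = 0.0408), and without sham 2 that for Kdr was -0.31 and passed (adjusted p = 0.0408 by the same test). The 5 markers all rose in CCI, whereas 2 of the 17 tested endothelial genes fell and 2 did not pass. With the 18 endothelial markers in place of the 5, none of the 5 receptors passed, though Tie1 and Tek stayed at the smallest possible p. The difference was then 1.36 for Tie1 and -0.53 for Tek (adjusted p = 0.0571 for each by the exact permutation test). It was -0.17 for Flt1 (adjusted p = 0.0816, same test), 0.00 for Kdr and 0.07 for Flt4.

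**Figure D4:**
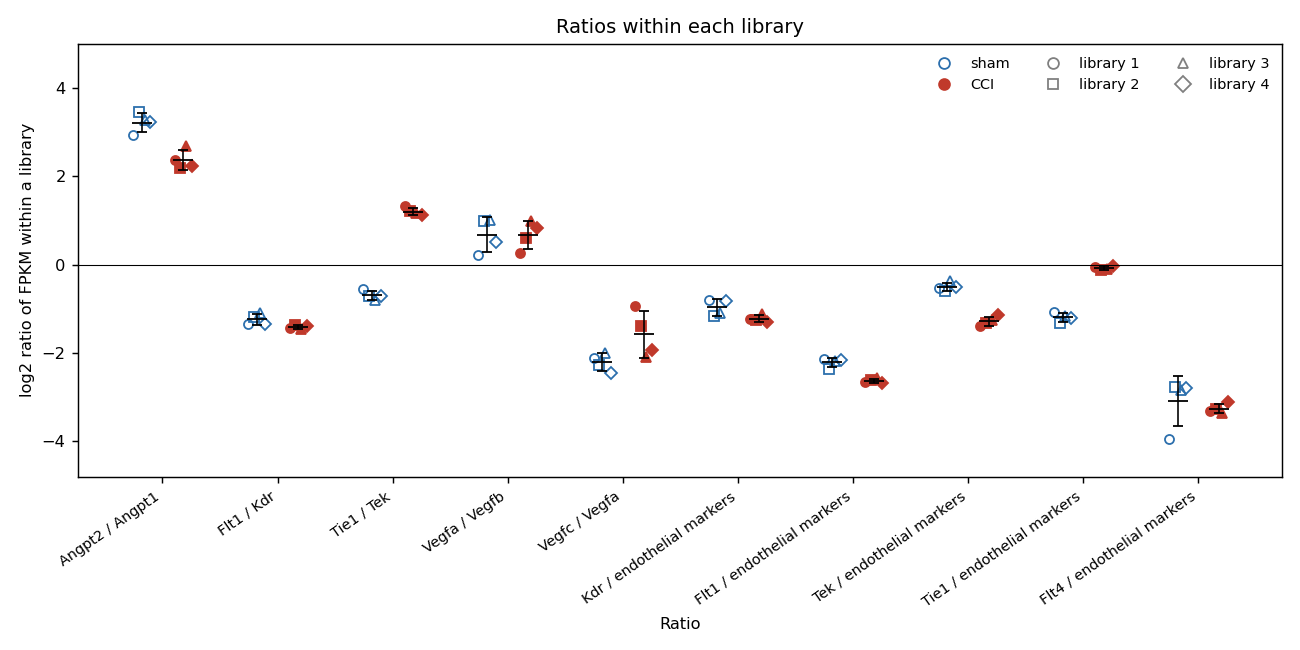
Log2 ratios of FPKM within each library, for 5 pairs of the 10 genes and for 5 receptors against the mean of 5 endothelial markers, with open blue symbols for sham, filled red symbols for CCI and bars for mean ± SD (n = 4). Tie1 relative to Tek lies below 0 in all sham libraries and above 0 in all CCI libraries, and Angpt2 relative to Angpt1 is lower in CCI.

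Other ligands, co-receptors and processing factors of the pathway rose in 5 of 9 cases and fell in none (all tested genes: 36.2% and 32.2%). Nrp1, a co-receptor of Kdr for VEGF that also binds semaphorins, had 77.4, 90.5, 102 and 101 CPM in sham 1 to 4 and 324, 319, 366 and 348 CPM in CCI 1 to 4. It rose in every CCI library (log2 fold change 1.87, SE 0.10; edgeR adjusted p = 4.71e-08). Angpt4, a further Tek ligand, went from 4.02 ± 1.08 to 17.0 ± 3.72 CPM (edgeR adjusted p = 1.24e-05). The others that rose were Figf, the older symbol of the Flt4 ligand Vegfd (log2 fold change 1.10, SE 0.24), Adamts3, a protease that activates Vegfc (0.84, SE 0.13), and Nrp2 (0.33, SE 0.08). Ptprb, the endothelial phosphatase that restrains Tek, did not pass (427 ± 87.7 CPM in sham, 424 ± 20.2 CPM after CCI; edgeR adjusted p = 0.959).

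Genes that act below the receptors went in both directions. Of the 11 tested, 6 rose and 2 fell (all tested genes: 36.2% and 32.2%), with a median log2 fold change of 0.58. Nos3, the endothelial nitric oxide synthase, rose from 23.9 ± 3.73 to 56.5 ± 4.96 CPM (edgeR adjusted p = 3.44e-06). Dok2, an adaptor of Tek that leukocytes also make, rose from 4.60 ± 1.20 to 20.7 ± 3.71 CPM (edgeR adjusted p = 6.42e-06). The 2 that fell were Foxo1, a transcription factor that Angpt1 signalling holds inactive, with 122 ± 10.8 CPM in sham and 60.1 ± 3.11 CPM in CCI nerve (edgeR adjusted p = 5.54e-07), and Nr4a1, an immediate early nuclear receptor, with 147 ± 14.4 and 65.7 ± 31.3 CPM (0.0113).

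Of 10 genes of tip and stalk cells, the leading and following cells of a vessel sprout, 8 rose and 1 fell. Among all tested genes 36.2% were called higher and 32.2% lower. Aplnr, the apelin receptor, had 13.5, 11.7, 17.4 and 25.5 CPM in sham 1 to 4 and 288, 240, 183 and 226 CPM in CCI 1 to 4, with a log2 fold change of 3.78 (SE 0.27; edgeR adjusted p = 4.09e-06). Cxcr4, a chemokine receptor of tip cells and of many leukocytes, went from 8.65 ± 2.78 to 58.4 ± 3.52 CPM (edgeR adjusted p = 2.84e-06). The member that fell was Hey1, a Notch target, with a log2 fold change of -0.34 (SE 0.12; edgeR adjusted p = 0.0265), and the Notch ligand Dll4 did not pass (log2 fold change -0.16, SE 0.11). Among 6 restraints of angiogenesis 3 rose, led by Col18a1, the collagen that holds endostatin, with 164 ± 15.4 CPM in sham and 894 ± 81.5 CPM in CCI nerve (edgeR adjusted p = 1.01e-08), and Thbs1, a thrombospondin (log2 fold change 1.14, SE 0.14). Timp3, an inhibitor that also blocks binding of VEGF to Kdr, fell, with a log2 fold change of -1.52 (SE 0.14; edgeR adjusted p = 5.81e-06).

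The hypoxia list, to which Vegfa is related as a target of HIF-1, went both ways. Of 18 HIF subunits and hypoxia targets, Vegfa not counted, 5 rose and 10 fell (all tested genes: 36.2% and 32.2%). Their median log2 fold change was -0.34. Hif1a, the regulated subunit of HIF-1, and the target Ldha, lactate dehydrogenase A, rose by 1.65 (SE 0.11) and 1.04 (SE 0.07) on the log2 scale. Adm, the vasoactive peptide adrenomedullin, fell (26.4 ± 7.08 CPM in sham, 17.5 ± 1.59 CPM after CCI; edgeR adjusted p = 0.00968). Slc2a1, the glucose transporter, fell as well (log2 fold change -1.61, SE 0.19). The 2 falls with the smallest p were Ndrg1 (log2 fold change -2.79, SE 0.13), which myelinating Schwann cells also make, and Mxi1 (-1.32, SE 0.14), a partner of Max.

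**Figure D5:**
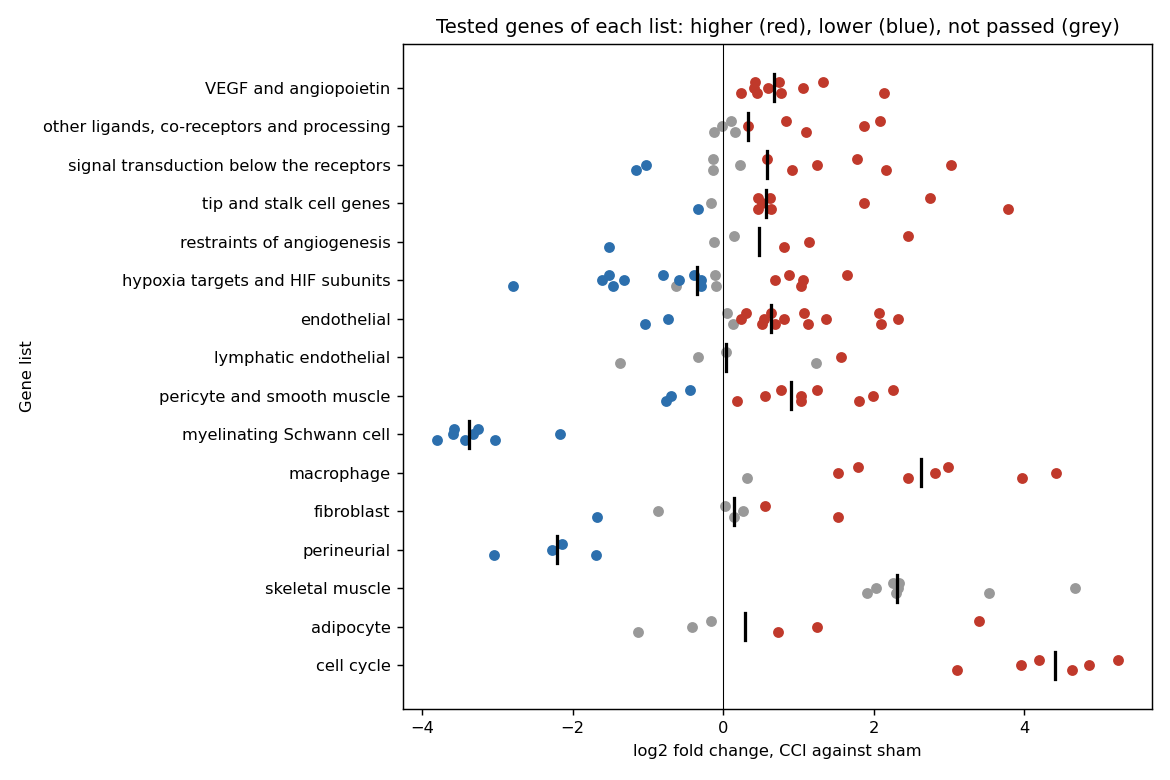
Log2 fold change of CCI against sham for every tested gene of 16 lists, the immediate early genes not drawn (1 point per gene, red for called higher, blue for called lower, grey for not passed), with the list's median as a black bar. All points of the VEGF and angiopoietin genes are red, while the hypoxia list has 5 red and 10 blue points and the myelinating Schwann cell list only blue ones.

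Markers of other cell types that can make these genes also moved. Beside their counts stand the shares of all tested genes, 36.2% called higher and 32.2% lower. Summed over each list, macrophage genes were at 951 to 1482 CPM in sham and 4871 to 5641 CPM in CCI, and 7 of 8 rose, Clec7a with the smallest p. Lyz2 alone was at 484 to 783 CPM in sham and 3101 to 3736 CPM in CCI. The sum over 12 pericyte and smooth muscle genes was 1701 to 2038 CPM in sham and 2175 to 2311 CPM in CCI, and 9 rose and 3 fell, Anpep having the smallest p. The 6 cell cycle genes all rose (list sum 17.9 to 26.5 against 408 to 474 CPM), Kif11 with the smallest p, and the 8 myelinating Schwann cell genes all fell, Ncmap with the smallest p. The 7 fibroblast markers summed to 27393 to 38235 CPM in sham and 24106 to 34333 CPM in CCI. Most of this sum was Col1a1, at 20274 to 30891 CPM in sham and 20595 to 29998 CPM in CCI. Of the 7, 2 rose and 1 fell. The one that fell was Dcn, a matrix proteoglycan, which itself was at 5242 to 6236 CPM in sham and 1619 to 1966 CPM in CCI. The 4 tested perineurial markers all fell (list sum 3738 to 5195 against 521 to 724 CPM), Itgb4 with the smallest p. Of 6 adipocyte markers 3 rose (list sum 348 to 818 against 546 to 1116 CPM), and the smallest p was that of Lep, itself at 0.0706 to 0.353 CPM in sham and 0.725 to 3.19 CPM in CCI. None of 8 skeletal muscle markers passed, Myh1 having the smallest p, and 6 of 6 immediate early genes rose (list sum 170 to 281 against 533 to 929 CPM), Jun with the smallest p. The part of these cells in the results for the 10 genes was not tested.

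Across all tested genes, longer genes had lower log2 fold changes, with a median of 0.27 in the 3942 shortest and -0.15 in the 3941 longest. Flt1 (11596 bp), Angpt1 (10611 bp) and Kdr (5876 bp) are among these longest genes and rose. The genes whose profile over the 8 libraries was nearest to that of Tie1, by the root mean square difference of centred log2 CPM among 14089 genes, were Slc8a1 (0.060) and Inpp5d (0.065). For Kdr they were Det1 (0.025) and Ap1m1 (0.044), for Flt1 Stk4 (0.054) and Ccm2 (0.057), and for Tek Map3k14 (0.049) and Osbpl9 (0.066). Angpt1 was nearest to Itgae (0.082) and Mex3b (0.102), Angpt2 to Foxp1 (0.060) and Osbpl3 (0.064), and Vegfc to Sfrp1 (0.109) and Atad2 (0.118). The nearest genes lay farthest off for Flt4, with Ccnt1 at 0.173 and Clic2 at 0.210, and for Vegfa, with Coro2b at 0.126 and Ggt7 at 0.128, while Vegfb had Fzd2 at 0.078 and Pygo2 at 0.085.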

How the data were processed

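PolyA RNA of 8 sciatic nerve libraries was measured, 4 after CCI (titles beginning with M) and 4 after sham operation (S), a reading of the titles that the series' design text gives. The kit was SMARTER mRNA-Seq, per the labels' protocols. The submitters' processing notes name fastp, HISAT2, HTSeq, R 3.2.0, DESeq2 and the build Rnor_6.0, with no role. No annotation, strand setting or filter is given there, so reads shared with overlapping or antisense genes cannot be told apart. The authors deposited raw counts per gene, and FPKM values that matched the deposited counts scaled by a fixed length per gene and by library totals, for 100% of genes with a count (implied lengths equal within 1 part in 1000000).

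Counts were tested with edgeR 4.0.16 (R 4.3.3; robust quasi-likelihood fit, filterByExpr, trimmed mean of M-values (TMM) scaling, no covariate), CCI against sham, and p-values were adjusted by Benjamini-Hochberg over 15763 genes, with calls at 0.05. SE is the log2 fold change divided by the square root of F. The test was checked on simulated counts. Levels are TMM-normalised CPM, and floors or counting errors cover counting only. Ratios used FPKM and an exact permutation test. Alternatives were other scalings, DESeq2 1.42.0, limma 3.58.1 on counts and on log2(FPKM + 1 or 0.1), other filters, a replicate block, a minimum fold of 2, and leaving out libraries. Within groups, pairs of libraries differed by more than counting allows (chi-square over its degrees of freedom 27.5 to 74.5), so none was merged.

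The members and lists were chosen with earlier results of these data known. Named by rule were all 10 members, the 2 rises and 2 falls with the smallest p of each pathway list, Hif1a, Adm, Slc2a1 and Ldha, the genes of the ratios, the marker with the smallest p of each list, and the 2 nearest genes of each member among those averaging at least 1 CPM. Further genes were picked with their values in view. Vegfd was matched through its older symbol Figf. Promoters came from RefSeq (GRCr8).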

Additional observations from a re-analysis of the deposited data

Results flagged for a closer look

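Of 124 groups of 4 libraries examined, covering the named genes and the ratios, 11 held a library whose gap to its nearest neighbour exceeded Dixon's 95% critical value (as a share of the group's range), and chance alone gives about 1 in 20. Sham 1 was the outlying library for Flt4 (7.48 CPM, the others 19.7 to 20.2 CPM), for the log2 level of Flt4 relative to endothelial markers (-3.94), for Prox1 (2.21 CPM), for Ccl21 (2.59 CPM) and for Jun (89.4 CPM, the others 113 to 117 CPM). Sham 3 was outlying for Angpt1 (12.9 CPM, the others 11.1 to 11.3 CPM), for Hif1a (113 CPM) and for Slc2a1 (285 CPM). Sham 2 was outlying for the muscle gene Myh1 (10.8 CPM). Among CCI libraries, CCI 3 was low for Pecam1 (157 CPM, the others 177 to 181 CPM) and CCI 1 for Egfl7 (73.2 CPM). No cause of these values was tested.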

How the results depend on the processing

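The log2 fold changes of all 10 genes kept their sign in all 20 alternatives. When a rise of more than 2-fold was asked for, 2 of the genes passed (Tie1 and Angpt1), with 3348 calls over all genes (1876 higher, 1472 lower). Without CCI 2 and sham 2, 6 of the 10 passed, but not Vegfa, Vegfb, Flt4 or Tek. Of all 15758 genes tested in that setting, 5136 were called higher and 4633 lower. Without any 1 library, 7 to 9 of the 10 passed. Of all genes, 10217 to 10540 were then called in either direction and 5213 to 5575 higher. With DESeq2's size factors in edgeR, or with no filter, Vegfa, Flt4 and Tek did not pass, and with at least 5 CPM in 4 libraries Vegfa and Tek did not. DESeq2 itself, voom, limma on FPKM, library totals, upper-quartile scaling and the replicate block gave 10 of 10. Over all genes, library totals called 7433 higher and limma on FPKM 7461 or 7485, against 5708 in the main edgeR test. The other settings with 10 of 10 called 5586 to 5800 of all genes higher. Scaling by totals moved the median of all tested genes from 0.05 to 0.27, the share of calls that were higher from 52.9% to 66.9%, and the median of the 10 genes from 0.67 to 0.90, which relative to all genes was 0.63 and 0.62.

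Leaving out 1 library gave log2 differences in the ratio of Angpt2 to Angpt1 of -0.96 to -0.77, of Flt1 to Kdr of -0.20 to -0.12, of Tie1 to Tek of 1.85 to 1.94, of Vegfc to Vegfa of 0.41 to 0.80 and of Vegfa to Vegfb of -0.16 to 0.13, the last changing sign. Relative to 5 endothelial markers they were -0.46 to -0.39 for Flt1, -0.82 to -0.73 for Tek, 1.07 to 1.16 for Tie1, -0.31 to -0.19 for Kdr and -0.46 to -0.07 for Flt4. With 18 markers they were -0.17 for Flt1, -0.53 for Tek, 1.36 for Tie1, 0.00 for Kdr and 0.07 for Flt4. Without CCI 2 and sham 2, where the smallest p is 0.10, the differences were -0.71 for Angpt2 to Angpt1, -0.17 for Flt1 to Kdr, 1.88 for Tie1 to Tek, 0.12 for Vegfa to Vegfb, and -0.47, -0.79 and 1.09 for Flt1, Tek and Tie1 relative to markers.

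Replicate numbers are not said to pair the libraries, and whether they do remains unknown. The correlation of deviations was 0.121, 0.293, -0.0241 and 0.0271 for numbers 1 to 4. Of the 8 libraries, 4 correlated best with the library of their own number in the other group. With the replicate block, 10505 of all genes were called. The SE of Vegfa was then 0.08 in place of 0.17 (log2 fold change 0.43, edgeR adjusted p = 0.00191). That of Vegfc was larger, at 0.22 in place of 0.19 (edgeR adjusted p = 0.00340). Pairing by number left the ratio differences at -0.85 for Angpt2 to Angpt1, -0.17 for Flt1 to Kdr, 1.89 for Tie1 to Tek, and -0.42, -0.77 and 1.12 for Flt1, Tek and Tie1 relative to markers, but with 4 pairs the smallest p of the sign-flip test is 0.125. Depth was not the limit for the 10 genes, whose lowest count was 120.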
